A study of Mus musculus with 14 samples.

Results

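Tail tip skin fibroblasts of aged mice (A-SC) were compared with embryonic skin fibroblasts (Y-SC) on Illumina MouseRef-8 v2.0 bead arrays, 3 arrays of each. The A-SC donors were 1.5-year-old B6CBAF1 mice (a hybrid strain) and the skin came from the tail tip. The Y-SC cells came from embryonic skin at E17.5 of the same hybrid strain, and both were grown in DMEM with 10% serum. Donor age, developmental stage and body site change together between the groups and cannot be told apart. The other 8 arrays of the series carry induced pluripotent stem cells (iPSC) made from aged or young fibroblasts with retroviruses carrying Oct4, Sox2, Klf4 and Myc, aged iPSC made with added ZSCAN10, and embryonic stem cells. The labels do not say whether the arrays of a group are separate animals or cultures, so every p-value measures the spread between arrays only.

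The comparison covered 11852 of 25697 probes, those detected (detection p under 0.05) on every A-SC array or on every Y-SC array, and these named 8170 genes. Of these probes, 10280 were detected on all 6 fibroblast arrays, 762 on every A-SC but not every Y-SC array, and 810 on every Y-SC but not every A-SC array. The largest detection p just inside the rule was 0.04887 and the smallest just outside was 0.05013. Levels are log2 normalized intensities after background correction, and a difference of 1 means a 2-fold change. A gene was called where its probe had a Benjamini-Hochberg adjusted p under 0.05 in limma over 14742 tested probes. Where a gene had several probes, the one with the highest mean over the 6 fibroblast arrays stood for it.

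Fibroblasts keep a memory of where and when they arose. Body position is written in HOX gene expression, and growth genes of the fetus, among them the imprinted growth factor gene Igf2 and the RNA-binding protein genes Igf2bp1 and Igf2bp3, are switched down after birth in most tissues. Dermal fibroblasts also make the collagens, proteoglycans and elastic fibres of the skin.

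The 6 arrays were not equally alike. The A-SC group held an array labelled with no further code, called here the uncoded A-SC array, beside A-SC-1.3 and A-SC-1.4. The Y-SC group likewise held an uncoded array beside Y-SC-16 and Y-SC-17. The 4 coded arrays were written to the table with 1 decimal and the 2 uncoded arrays with more, so that export format and labelling cannot be told apart. Pearson's r over the members was 0.971 between A-SC-1.3 and A-SC-1.4, and 0.904 and 0.911 between each of them and the uncoded A-SC array. It was 0.957 between the uncoded Y-SC array and Y-SC-16, against 0.912 and 0.930 for Y-SC-17 with these. The highest value between groups was 0.967, for A-SC-1.3 with Y-SC-16, so pairs of arrays from different groups could be as alike as replicates. The median SD over probes was 0.326 in A-SC and 0.329 in Y-SC, against 0.147 to 0.265 in the 4 groups of iPSC and embryonic stem cells.

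All 6 arrays carried the fibroblast signature, with 13 to 15 of 15 fibroblast markers detected. The uncoded A-SC array also carried endothelial RNA: 12 of 15 endothelial markers were detected there, and their summed intensity was 44189, against 1003 and 1122 on A-SC-1.3 and A-SC-1.4 and 881 to 944 on the Y-SC arrays. Emcn, an endothelial sialomucin, stood at 13.78 there, Plvap, a protein of endothelial fenestrae, at 12.80, and Pecam1 (CD31) at 11.13. On A-SC-1.3 and A-SC-1.4 these 3 genes lay between 4.34 and 4.56. Kdr, the main VEGF receptor of endothelium, was not detected on any fibroblast array. The Y-SC arrays carried leukocyte markers to unequal degrees, with summed intensities of 1749 on the uncoded array, 4437 on Y-SC-16 and 9712 on Y-SC-17, against 1003 to 1186 on the A-SC arrays. The uncoded Y-SC array also had 15 of 24 keratinocyte and 16 of 23 skeletal muscle markers detected, against 6 to 9 keratinocyte and 4 to 7 muscle markers on the A-SC arrays. Y-SC-16 and Y-SC-17 had 11 and 7 keratinocyte and 10 and 6 muscle markers detected. The keratinocyte sums were 3186, 1492 and 1230 on the uncoded Y-SC array, Y-SC-16 and Y-SC-17, against 1338 to 2366 in A-SC. In the same order the muscle sums were 3882, 3421 and 1536, against 2716 to 3050 in A-SC. In bulk RNA, fewer cells of a type and less RNA per cell cannot be told apart.

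**Figure D1:**
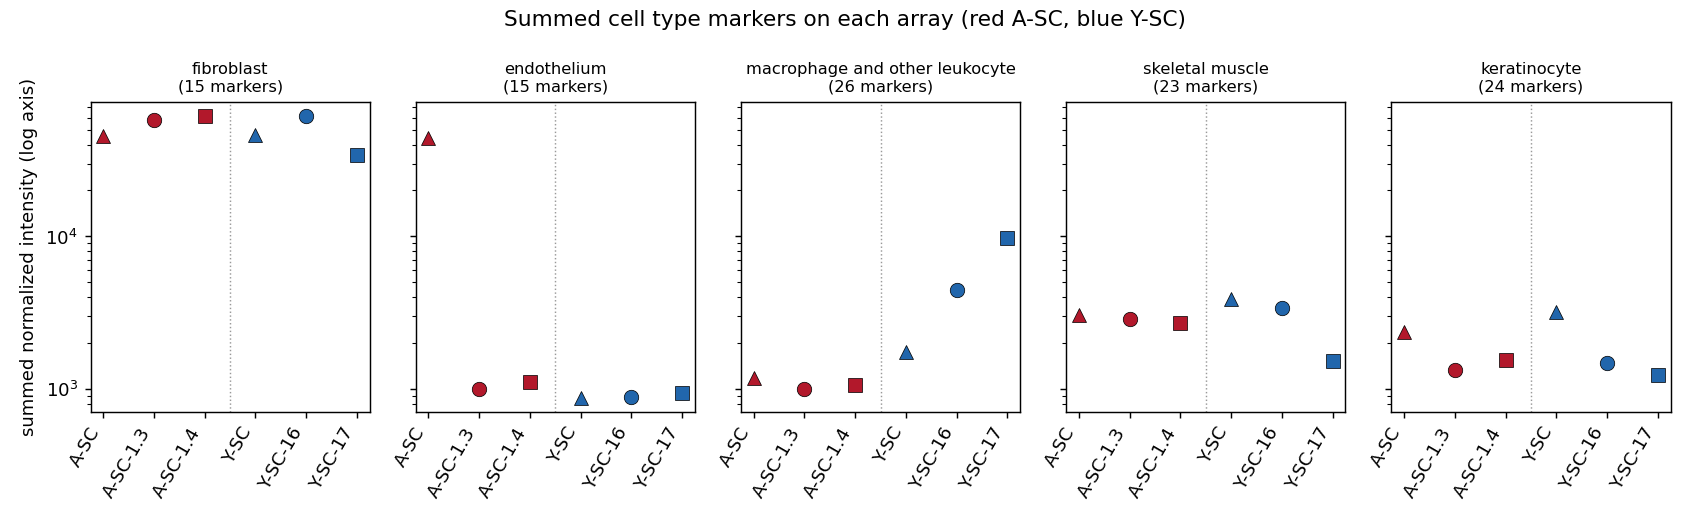
Summed normalized intensity of 5 cell type marker lists (log axis) on each of the 3 A-SC arrays (red, left) and the 3 Y-SC arrays (blue, right). The endothelial sum of the uncoded A-SC array reached 44189 while the other 5 arrays lay between 881 and 1122, and the leukocyte sum reached 9712 on Y-SC-17.

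The sex-linked genes Xist and Eif2s3y differed between arrays of the same group. Xist, the RNA that silences an X chromosome in females, was detected on A-SC-1.3 (8.27), A-SC-1.4 (8.68) and Y-SC-16 (8.45) and lay at 4.55, 4.66 and 4.79 on the uncoded A-SC, uncoded Y-SC and Y-SC-17 arrays. The Y-linked translation factor gene Eif2s3y was the mirror image. It stood at 10.11 on the uncoded A-SC array and at 10.04 and 9.78 on the uncoded Y-SC array and Y-SC-17, and was not detected on the 3 arrays with Xist. By both genes A-SC-1.3, A-SC-1.4 and Y-SC-16 read as female, and the uncoded A-SC array, the uncoded Y-SC array and Y-SC-17 as male. Each group thus held arrays of both sexes in unlike shares, so neither is of a single animal. Within A-SC, sex followed the split into coded and uncoded arrays and cannot be told apart from it. Uty, a Y-linked histone demethylase gene, was detected on all 6 arrays, at 6.44, 5.33 and 5.69 in A-SC, against 6.22, 5.20 and 6.35 in Y-SC. Of the 48 genes called below, 2 lie on the X chromosome (Fgf13 and Capn6) and 0 on the Y.

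Few genes separated the groups beyond the spread between arrays. Over all tested probes 61 were called, or 0.414%, 28 of them higher in A-SC (0.236% of member probes) and 33 lower (0.278%). By gene, 21 rose in A-SC (0.257% of member genes) and 27 fell (0.33%). At an unadjusted p under 0.05 there were 1519 probes (10.3%). The median difference over member genes was -0.06, with 284 genes over 1 higher and 196 over 1 lower. The 3 A-SC values all lay above the 3 Y-SC values for 474 genes (5.8%) and all below for 648 (7.93%). The spread was estimated over all 14 arrays, among them the iPSC and embryonic stem cell groups. Their arrays varied less, with a median SD of 0.147 to 0.265 against 0.326 in A-SC and 0.329 in Y-SC. The SE and adjusted p values given here can therefore understate the spread between fibroblast arrays. Fitted on the 6 fibroblast arrays alone, with fewer degrees of freedom and over 11852 probes, 7 probes were called, 6 of them among the 61, and 906 had an unadjusted p under 0.05. Among the 38 called genes named by rule, 5 were also called on the 6 arrays alone: Prelp, Ptpn22, Spink6, Sprr2k and Igf2bp3. None of the 38 changed sign in any alternative run. Their groups did not overlap, which fixes the sign wherever arrays are left out, so the sign is no test of those runs. The call remained for 14 whichever single fibroblast array was left out: Prelp, Ptpn22, Spink6, Sod3, Angpt4, Akr1c12, Sprr2k, Igf2bp1, Igf2bp3, Lingo2, Pf4, Cxcl12, Lhx9 and Adam23. The other 24 all missed the threshold without A-SC-1.4 (adjusted p from 0.0658 to 0.213), and 20 of them also without at least 1 further array.

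**Figure D2:**
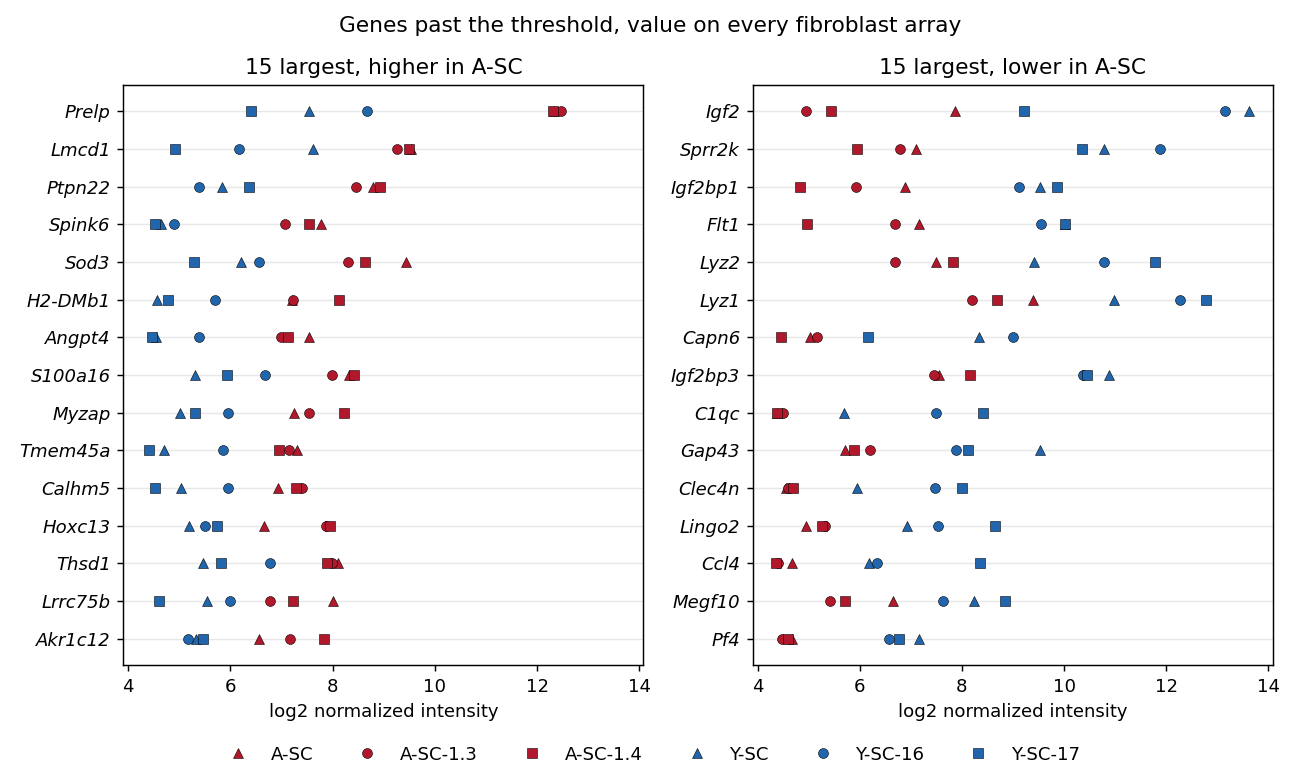
Log2 normalized intensity on every array for the 15 largest called increases (left) and 15 largest called decreases (right) in A-SC (red) against Y-SC (blue), with triangles for the uncoded arrays. No A-SC value overlaps a Y-SC value in any row, which the choice of genes required, and the 3 Prelp values of A-SC fall between 12.31 and 12.47.

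Of 7 oncofetal and fetal growth genes, 3 fell in A-SC: Igf2bp3, Igf2bp1 and Hmga2. Igf2bp3, an RNA-binding protein that steers and stabilises growth-related mRNAs in the fetus, was at 7.56, 7.45 and 8.16 on the uncoded A-SC array, A-SC-1.3 and A-SC-1.4, against 10.89, 10.38 and 10.45 on the uncoded Y-SC array, Y-SC-16 and Y-SC-17, an order kept below. It fell by 2.85 ± 0.29 (SE, adjusted p = 0.00206) and both its probes were called. Igf2bp1, its paralog, was at 6.88, 5.93 and 4.84 in A-SC, against 9.54, 9.12 and 9.87 in Y-SC, and fell by 3.62 ± 0.43 (adjusted p = 0.00328). All Y-SC arrays were high for both genes and no A-SC array reached them. On the 6 arrays alone Igf2bp3 was past the threshold (adjusted p = 0.0258) and Igf2bp1 did not (adjusted p = 0.0779).

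Hmga2, a chromatin-bending protein of proliferating embryonic mesenchyme, was not detected on any A-SC array (4.49, 5.04 and 4.62), against 6.11, 5.87 and 6.88 in Y-SC, at least 2.27-fold lower when set against the lowest detected intensity of each array (adjusted p = 0.0237). It missed the threshold without the uncoded A-SC array or A-SC-1.4 (adjusted p = 0.0535 and 0.125), without background correction, in the authors' deposited table (adjusted p = 0.145), with offset 50, with no filter, and on the coded arrays or the 6 arrays alone. In this list 0 genes rose, with a median of -0.69 against -0.06 over all member genes. The others, Arid3a, E2f5, Nr6a1 and Alpl, had differences of -0.69, -0.38, -0.15 and 0.81 with adjusted p from 0.326 to 0.926.

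The windows before the annotated starts of Igf2bp3 and Hmga2, which fell, and Prelp, which rose most, are printed so that the genes can be placed. They are RefSeq sequence of GRCm38.p6, all on the minus strand, 250 bases up to the start, written 5′ to 3′. Capitals mark CACGTG (an E-box) and CCAAT on either strand; TATAAA was searched as well and none of the 3 windows holds it.
Igf2bp3, chr6:49214955-49215204: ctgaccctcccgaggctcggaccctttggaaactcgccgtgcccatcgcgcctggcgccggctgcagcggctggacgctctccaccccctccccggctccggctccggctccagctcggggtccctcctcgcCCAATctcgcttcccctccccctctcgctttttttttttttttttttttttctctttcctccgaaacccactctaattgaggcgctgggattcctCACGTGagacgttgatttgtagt
Hmga2, chr10:120476470-120476719: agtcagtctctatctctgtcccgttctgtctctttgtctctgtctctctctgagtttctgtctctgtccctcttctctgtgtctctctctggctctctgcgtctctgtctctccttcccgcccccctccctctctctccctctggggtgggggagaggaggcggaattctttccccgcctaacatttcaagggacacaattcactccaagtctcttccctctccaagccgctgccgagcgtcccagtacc
Prelp, chr1:133921402-133921651: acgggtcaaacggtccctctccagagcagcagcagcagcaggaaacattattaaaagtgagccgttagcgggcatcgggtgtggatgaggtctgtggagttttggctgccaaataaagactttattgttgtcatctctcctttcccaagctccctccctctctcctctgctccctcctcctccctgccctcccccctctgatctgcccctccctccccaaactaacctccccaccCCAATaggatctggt
The E-box was found once, before Igf2bp3, and 6.02% of 32851 such windows hold it. CCAAT stood once before Igf2bp3 and once before Prelp, and 33.8% of all windows hold it, while TATAAA is in 12.4%. CG dinucleotides numbered 21 in the Igf2bp3 window, 8 before Hmga2 and 5 before Prelp, where the median window has 6.

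Igf2, the fetal insulin-like growth factor expressed from the paternal allele, had the largest difference in group means of any called gene. It was at 7.86, 4.95 and 5.43 in A-SC, against 13.62, 13.15 and 9.21 in Y-SC, and fell by 5.92 ± 1.07 (adjusted p = 0.0395). Both groups were uneven, with 2 of 3 A-SC arrays detected and Y-SC-17 about 4 below its fellows. The call was lost on the 6 arrays alone (adjusted p = 0.202), and without the uncoded Y-SC array, Y-SC-16, A-SC-1.3 or A-SC-1.4 (adjusted p from 0.0892 to 0.183). It was also lost without background correction, in the authors' deposited table, with offset 50, with cyclic loess and with no filter (adjusted p from 0.0519 to 0.142). In the list of IGF axis and imprinted genes 1 of 22 members fell and 0 rose (median -0.31). Groups did not overlap for 6 members lower and 1 higher in A-SC, against 7.93% and 5.8% of all member genes. The imprinted genes Dlk1, a Notch-family ligand of immature mesenchyme, and Cdkn1c, a brake on the cell cycle, differed by -3.84 ± 1.13 (adjusted p = 0.245) and -3.12 ± 0.77 (adjusted p = 0.15). Dlk1 had 4.62, 6.59 and 7.12 in A-SC, against 11.05, 9.20 and 9.61 in Y-SC. Cdkn1c had 8.40, 5.31 and 6.03 in A-SC, against 10.21, 10.25 and 8.64 in Y-SC. Neither gene's groups overlapped and neither passed the threshold. Gpc3, a heparan sulfate proteoglycan that restrains fetal growth, differed by -3.07 ± 0.70 (adjusted p = 0.119). Igfbp6, which binds IGF2 in preference to IGF1, lay the other way at 10.08, 10.26 and 10.36 in A-SC, against 8.17, 8.75 and 6.48 in Y-SC (adjusted p = 0.606).

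Prelp, a leucine-rich proteoglycan that ties collagen to basement membranes, showed the largest rise. It was at 12.33, 12.47 and 12.31 in A-SC, against 7.54, 8.68 and 6.41 in Y-SC, a rise of 4.82 ± 0.66 (adjusted p = 0.00831). Among 31 members of the list of elastic fibres, proteoglycans and matrix glycoproteins it alone was called, with a list median of 0.31. Mfap5, a microfibril protein, was at 9.53, 11.70 and 12.15 in A-SC, against 7.50, 10.54 and 7.56 in Y-SC, and did not pass (adjusted p = 0.262). Mfap2, a related microfibril protein, was at 6.19, 7.60 and 7.11 in A-SC, against 10.21, 9.79 and 6.97 in Y-SC (adjusted p = 0.311).

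The collagen genes gave no call among 13 members, and none had groups that did not overlap. Their median difference was 0.38. Col1a1 was at 12.13, 13.43 and 13.51 in A-SC, against 12.52, 13.52 and 11.22 in Y-SC, and Col3a1 at 8.94, 10.77 and 9.49, against 9.72, 11.15 and 5.63. Y-SC-17 was the lowest of the 6 arrays for both genes. It was also the lowest for Ogn (osteoglycin, 4.68 against 9.41 to 10.38 elsewhere) and Cd248 (endosialin, 7.56 against 11.48 to 11.90 elsewhere). In all, 36 genes on Y-SC-17 lay over 2 below the 5 other fibroblast arrays.

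Sod3, the extracellular superoxide dismutase, was at 9.43, 8.31 and 8.63 in A-SC, against 6.21, 6.55 and 5.29 in Y-SC, and rose by 2.77 ± 0.35 (adjusted p = 0.00555). It was the only call among 41 members of the glutathione and NRF2 list, whose median was 0.47. Of these 41 genes, 10 had A-SC values all above Y-SC and 1 all below, where 5.8% and 7.93% of all member genes did. The 10 included Gclm, the regulatory subunit that sets glutathione synthesis, at 10.19, 10.11 and 10.20 in A-SC, against 9.36, 9.52 and 9.51 in Y-SC (adjusted p = 0.268). They also included Gpx3, the secreted glutathione peroxidase, with a difference of 2.05 (adjusted p = 0.181), Nqo1, a quinone reductase and NRF2 target, with 2.16 (adjusted p = 0.295), and Gstm2, a glutathione transferase, with 1.60 (adjusted p = 0.264). Gclc, the catalytic partner of Gclm, was the gene below, at 5.31, 5.34 and 5.28 in A-SC, against 5.53, 5.52 and 6.11 in Y-SC (adjusted p = 0.501). Gss, which completes glutathione, differed by 0.20 ± 0.29 (adjusted p = 0.879).

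Ptpn22, a tyrosine phosphatase best known from lymphocytes, was at 8.78, 8.46 and 8.93 in A-SC, against 5.83, 5.39 and 6.36 in Y-SC, and rose by 2.87 ± 0.28 (adjusted p = 0.00206). Spink6, a skin inhibitor of kallikrein proteases, was at 7.78, 7.07 and 7.54 in A-SC and was not detected on any Y-SC array, at least 5.24-fold higher (adjusted p = 0.0022). Both kept the call on the 6 arrays alone. Lmcd1, a LIM-domain cofactor, was at 9.53, 9.27 and 9.50 in A-SC, against 7.61, 6.16 and 4.92 in Y-SC, and its 3 probes were all called with rises of 2.63 to 3.20. Angpt4, a ligand of the TIE2 receptor, rose by 2.43 ± 0.27 (adjusted p = 0.00243), on all A-SC arrays and not on the uncoded one alone: 7.54, 6.99 and 7.13, against 4.55, 5.39 and 4.46 in Y-SC. The immune genes H2-DMb1, which loads peptide onto MHC class II, and Tlr4, the endotoxin receptor, rose by 2.50 ± 0.37 and 1.71 ± 0.31 (adjusted p = 0.0138 and 0.0395). The calcium-binding S100a16, the skin protein gene Tmem45a and Hr, the hairless corepressor of the hair cycle, rose by 2.27, 2.15 and 1.86. Tlr4 and Hr were named outside the rule after their values were seen, and their calls were not followed through the alternative runs. The calls of S100a16 and Thsd1, a membrane protein of endothelium, were each lost without any 1 array other than Y-SC-16 (adjusted p from 0.0527 to 0.145).

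Of the HOX genes, which mark position along the body, 1 was called. Hoxc13, the most posterior gene of the HoxC cluster, which acts in tail vertebrae, hair and nails, was at 6.65, 7.87 and 7.96 in A-SC, against 5.18, 5.51 and 5.75 in Y-SC, and rose by 2.01 ± 0.32 (adjusted p = 0.0199). The call was lost without the uncoded Y-SC array, A-SC-1.3 or A-SC-1.4 (adjusted p from 0.0676 to 0.111), and also without background correction, in the authors' deposited table, with no filter and on the 6 arrays alone. Its neighbour Hoxc10 was at 8.74, 9.21 and 9.93 in A-SC, against 8.34, 8.12 and 8.33 in Y-SC, with no overlap (adjusted p = 0.678). Of the 38 HOX genes with a probe, 19 were members, of which 1 rose and 0 fell (median -0.73). Hoxa13 hardly differed (0.23, adjusted p = 0.835), and Hoxd13 was not a member.

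Several other HOX genes differed between the A-SC arrays. Hoxd8 was at 9.72 on the uncoded A-SC array and not detected on A-SC-1.3 and A-SC-1.4 (4.77 and 4.54), against 8.86, 8.21 and 9.34 in Y-SC. Hoxd10 was at 9.74, 4.63 and 4.84 in A-SC, against 7.32, 8.61 and 7.08 in Y-SC. Hoxd9 and Hoxd4 showed the same split, with 8.54 and 7.83 on the uncoded A-SC array and no detection on A-SC-1.3 and A-SC-1.4. Hoxc6, an anterior trunk gene, was at 11.56, 8.83 and 7.46 in A-SC, against 11.62, 11.52 and 11.31 in Y-SC. On these genes the uncoded A-SC array sat with, or above, the embryonic arrays. Hoxd8 was not called with all arrays (-2.46, adjusted p = 0.465) and fell by 4.15 without the uncoded A-SC array (adjusted p = 0.00456). Hoxd10 fell by 2.94 (adjusted p = 0.0349) and Hoxa7 fell by 2.01 (adjusted p = 0.0325) in the same fit. That fit leaves out the array that stood apart within A-SC on these genes, so its calls are no independent support for a fall. The difference between export formats was itself significant for Hoxd8 and Hoxd10 (adjusted p = 0.0355 and 0.03), 2 of the 19 members, against 133 of all 8170 member genes. Others had close differences in both formats, among them Hoxb2 with -0.66 on the coded and -0.95 on the uncoded arrays and Hoxb9 with 0.31 and 0.42. Over the 19 members, 2 had A-SC values all above Y-SC and 3 all below, where 5.8% and 7.93% of all member genes did.

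**Figure D3:**
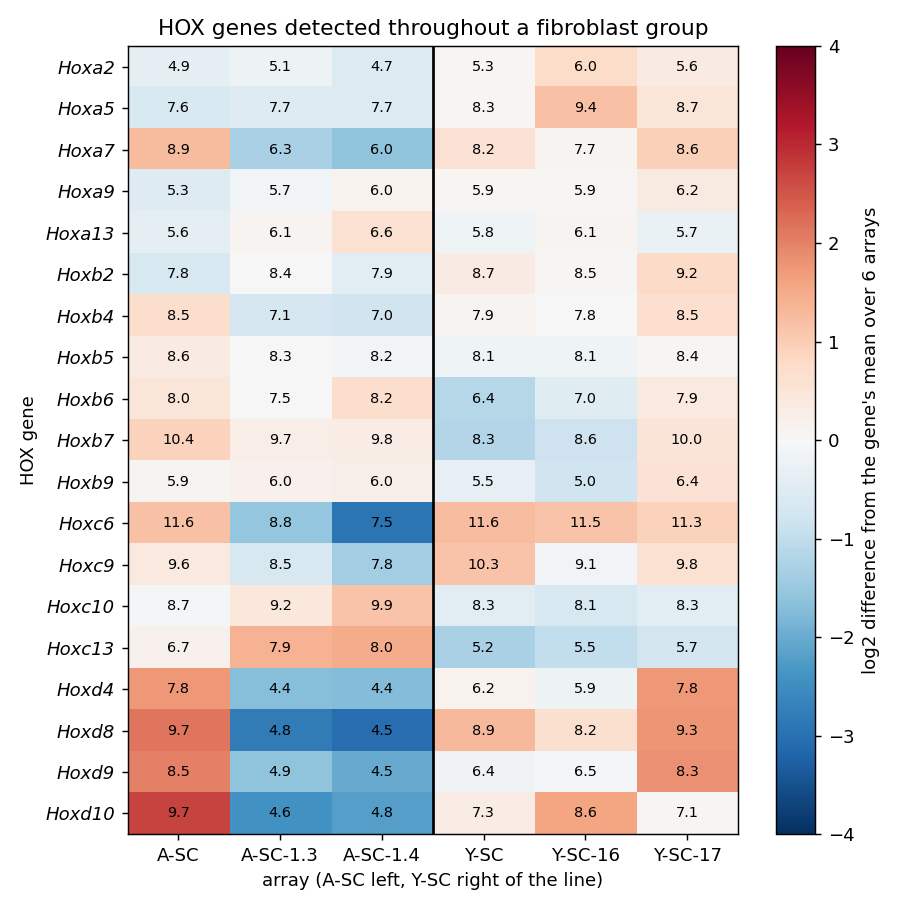
Levels of the 19 HOX genes detected throughout a fibroblast group, coloured by the difference from each gene's mean over the 6 arrays (A-SC left of the line, Y-SC right) with the log2 normalized intensity written in each cell. Hoxc13 is higher on all A-SC arrays, while Hoxd4 to Hoxd10 are at 7.83 to 9.74 on the uncoded A-SC array and at 4.37 to 4.93 on the other A-SC arrays.

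Among 39 positional and mesenchymal transcription factors 1 fell and 0 rose (median -0.29). Lhx9, a LIM homeobox gene of embryonic limb and gonad mesenchyme, was not detected on any A-SC array (4.74, 4.40 and 4.48), against 6.49, 6.11 and 6.65 in Y-SC, at least 2.5-fold lower (adjusted p = 0.00206). It remained called whichever array was left out. Meis1, a HOX cofactor, was lower in A-SC without overlap at 7.76, 8.90 and 8.57, against 9.91, 9.65 and 9.82 in Y-SC, and did not pass (adjusted p = 0.268). Meox2, a mesodermal homeobox gene, lay the other way at 9.51, 7.63 and 8.08, against 6.78, 6.15 and 4.40 (adjusted p = 0.248).

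Among the genes that fell were 3 of the leukocyte list, Lyz2, C1qc and Fcgr3. Lyz2, the lysozyme of macrophages, was at 7.50, 6.68 and 7.82 in A-SC, against 9.42, 10.78 and 11.78 in Y-SC, and fell by 3.33 ± 0.53 (adjusted p = 0.0199). Lyz1, a near-identical paralog whose probe may read the same transcripts, fell by 3.26. C1qc, a chain of complement C1q, Fcgr3, an IgG receptor, and Clec4n (dectin-2), a fungal lectin receptor, were not detected on any A-SC array and were at least 4.3-fold, 2.41-fold and 4.13-fold lower (adjusted p = 0.0393, 0.0358 and 0.0189). Pf4, a chemokine of platelets and some macrophages, was at 7.15, 6.56 and 6.77 in Y-SC and not detected in A-SC (at least 3.32-fold lower, adjusted p = 0.00138), the smallest adjusted p of the comparison. Ccl4, a macrophage chemokine, was at least 3.64-fold lower.

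In the leukocyte list 3 of 13 members fell and 0 rose, with a median of -1.48. Groups did not overlap for 9 members lower and 1 higher in A-SC, against 7.93% and 5.8% of all member genes. Of the members, only Lyz2, Cd14 and Coro1a were detected on all 6 arrays. H2-Ab1 entered through A-SC, and the other members only through detection on every Y-SC array. The filter thus tilted this list towards genes lower in A-SC, and the shares over all member genes are not a like comparison. The count of 3 became 1 without background correction, in the authors' deposited table, with offset 50, with median scaling and with cyclic loess, and 0 with no filter and on the 6 arrays alone. Leaving out 1 array gave 0 (without A-SC-1.3 or A-SC-1.4), 1 (without the uncoded A-SC array or Y-SC-16), 2 (without Y-SC-17) or 7 (without the uncoded Y-SC array). The defining markers Adgre1, the adhesion receptor that marks mouse macrophages, Fcer1g and Tyrobp were among these 9, not detected on any A-SC array and detected on every Y-SC array, with adjusted p of 0.109, 0.15 and 0.0563. This holds for the Adgre1 probe that was a member; the other Adgre1 probe was detected on Y-SC-16 and Y-SC-17 and not on the uncoded Y-SC array. H2-Ab1, an MHC class II chain, lay the other way at 5.72, 6.44 and 5.77 in A-SC and was not detected in Y-SC (adjusted p = 0.0778). Each of the 3 called markers was highest on Y-SC-17 and lowest on the uncoded array within Y-SC. C1qc was at 5.69, 7.50 and 8.42 there, and its call was lost without any 1 array other than the uncoded Y-SC array (adjusted p from 0.0592 to 0.165). The part of the leukocyte sums in these results was not tested.

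The skin barrier genes Sprr2k and Lor also fell. Sprr2k, a small proline-rich protein of the cornified envelope, was at 7.10, 6.78 and 5.95 in A-SC, against 10.79, 11.88 and 10.34 in Y-SC, and fell by 4.39 ± 0.40 (adjusted p = 0.00142). It kept the call in every alternative run. Lor, loricrin, was at 6.22, 5.33 and 5.15 in A-SC, against 7.78, 7.47 and 7.55 in Y-SC (adjusted p = 0.035), a call lost without any 1 array other than the uncoded A-SC array (adjusted p from 0.058 to 0.167). Keratinocyte markers varied among the Y-SC arrays. Krt14, a basal keratinocyte keratin, was at 9.93 on the uncoded Y-SC array and at 4.87 on Y-SC-17, while Ivl (involucrin) was at 5.46, 7.85 and 5.73 over the uncoded array, Y-SC-16 and Y-SC-17 and was not detected in A-SC. The part of keratinocyte RNA in these results was not tested. Of 7 keratinocyte markers that were members 1 fell and 0 rose (median 0.31).

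Flt1, a VEGF receptor, was at 7.16, 6.70 and 4.98 in A-SC, against 10.01, 9.54 and 10.02 in Y-SC (adjusted p = 0.046), and its call was lost without any 1 array other than the uncoded A-SC array (adjusted p from 0.0687 to 0.179). Cxcl12, a chemokine of dermal stroma, was at 9.48, 9.53 and 9.64 in A-SC, against 11.31, 11.78 and 12.07 in Y-SC, and fell by 2.17 ± 0.29 (adjusted p = 0.00695). Of its 3 member probes 1 was called, with differences from -2.17 to -0.87. Gap43, a growth cone protein, fell by 2.58 ± 0.40 (adjusted p = 0.0168), at 5.71, 6.20 and 5.89 in A-SC, against 9.53, 7.89 and 8.12 in Y-SC. The engulfment receptor Megf10, the neuronal surface protein Lingo2 and Capn6, a calpain without protease activity, fell by 2.30, 2.52 and 2.95 (adjusted p = 0.0187, 0.00725 and 0.0476). Over the 6 fits without 1 array, the call was kept in 6 for Lingo2, in 3 for Megf10 and in 1 for Capn6.

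The cell cycle genes had opposite differences in the coded and the uncoded arrays, and no call in the whole comparison. On the coded arrays 32 of 34 cell cycle genes were higher in A-SC, with a median difference of 1.24. Between the uncoded arrays 1 of 34 was higher in A-SC, with a median of -1.98. Over all member genes the medians were -0.06 and -0.06, and 3557 and 3780 of 8170 genes were higher in A-SC. Plk1, a mitotic kinase, was at 8.51, 10.15 and 9.70 in A-SC, against 10.75, 8.28 and 6.92 in Y-SC. Top2a, the topoisomerase of dividing cells, was at 7.83, 10.47 and 9.99 in A-SC, against 10.45, 8.80 and 6.94 in Y-SC. The uncoded Y-SC array, A-SC-1.3 and A-SC-1.4 were high, and Y-SC-17 was lowest. By the test of the difference between formats, 9 of the 34 genes differed, against 133 of all 8170 member genes.

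**Figure D4:**
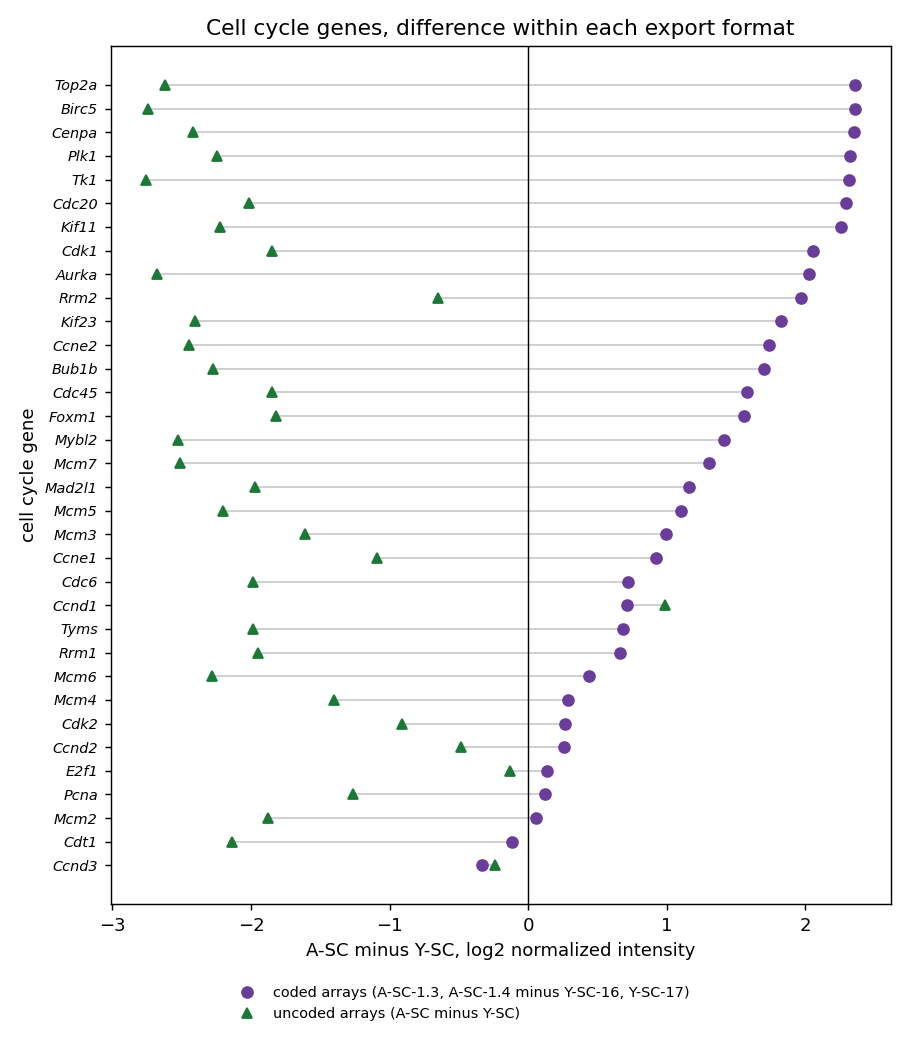
A-SC minus Y-SC in log2 normalized intensity for the 34 cell cycle genes that were members, on the 4 coded arrays (purple circles) and between the 2 uncoded arrays (green triangles). Of the 34 genes, 32 lie right of 0 on the coded arrays and 1 lies right of 0 between the uncoded arrays.

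Over all tested probes 240 (1.63%) had an A-SC minus Y-SC difference that was not the same on the coded and the uncoded arrays. This held for 133 member genes, 68 with a lower and 65 with a higher difference on the coded arrays. None of the 48 called genes was among them. The uncoded side of this test was 1 array a group, so export format cannot be told apart from what is particular to these single arrays. All 48 had groups that did not overlap, which fixes the same sign in both formats. The 68 included the endothelial genes Egfl7 and Eng, with 13.31 and 12.28 on the uncoded A-SC array against 7.85 to 8.14 and 8.57 to 8.99 on A-SC-1.3 and A-SC-1.4. They also included Ccl8, a monocyte chemokine, at 11.52, 7.93 and 7.73 in A-SC, against 4.80, 7.25 and 6.87 in Y-SC. Fitted with limma on the 6 fibroblast arrays alone, 0 probes passed this test and 1114 had an unadjusted p under 0.05. With the export format as a block in the fit, 74 probes were called, 59 of them among the 61. Both groups hold the same split of coded and uncoded arrays, so the block leaves every A-SC minus Y-SC difference as it was. Only the estimate of spread changes, so these counts do not test the effect of format. Interferon response genes had a median of -0.52 on the coded and 0.84 on the uncoded arrays, with 0 of 23 members called.

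The comparison could be set beside that of iPSC made from aged and young fibroblasts, A-iPSC and Y-iPSC with 2 arrays each, which shares no array with it. Among the fibroblast members 419 genes were called higher in A-iPSC (5.13%) and 320 lower (3.92%). Of the 27 genes that fell in A-SC, 7 (25.9%) also fell in A-iPSC and 0 rose. Of the 21 that rose in A-SC, 1 (4.76%) also rose in A-iPSC and 1 fell. The share among the decreases was above the 3.92% background and that among the increases was close to 5.13%. Both contrasts use the same estimate of each gene's spread, so genes with a small spread are called more easily in both.

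The 7 were Igf2bp1, Igf2bp3, Flt1, Lor, Ramp3, Igsf9 and Adam23, and the gene that rose in both was Thsd1. Igf2bp3 was at 5.34 and 5.72 in A-iPSC, against 8.77 and 9.20 in Y-iPSC, and fell by 3.46 ± 0.36 (adjusted p = 0.000177). Igf2bp1 was at 6.70 and 6.71 in A-iPSC, against 9.79 and 9.98 in Y-iPSC, and fell by 3.18 ± 0.52 (adjusted p = 0.00332). Embryonic stem cells had 11.33 and 10.55 for Igf2bp3 and 11.37 and 11.77 for Igf2bp1. Flt1 was not above 4.51 in A-iPSC, against 8.45 and 8.30 in Y-iPSC. Hmga2 lay between 4.34 and 4.45 on all 4 of these iPSC arrays. Hoxd8 was at 11.29 and 11.19 in A-iPSC, against 6.34 and 7.92 in Y-iPSC, beside 9.72 on the uncoded A-SC array and 4.77 and 4.54 on A-SC-1.3 and A-SC-1.4. S100a16, which rose in A-SC, fell in A-iPSC, at 5.42 and 5.80, against 7.55 and 7.34 in Y-iPSC (adjusted p = 0.029).

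**Figure D5:**
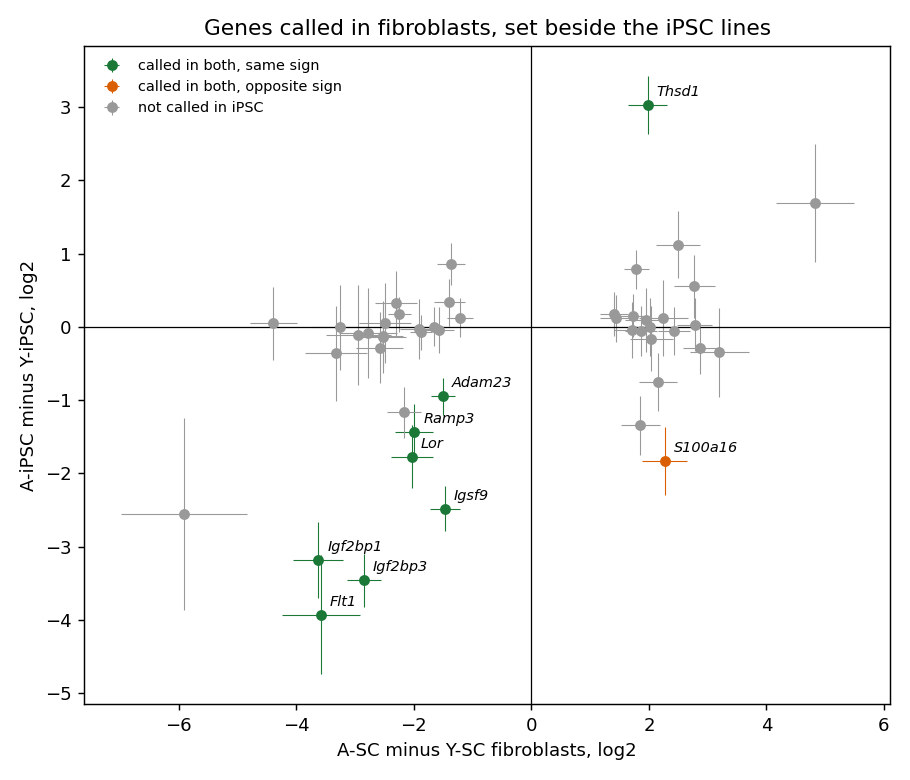
A-SC minus Y-SC (horizontal) against A-iPSC minus Y-iPSC (vertical), both in log2 normalized intensity with bars of 1 SE, for the 48 genes called in the fibroblasts. Green marks the 8 genes called with the same sign in both, orange S100a16 with the opposite sign, and the 39 grey genes were not called in the iPSC.

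The count of calls seen again moved with the fibroblast arrays used. The counts that follow hold the iPSC calls as they were with all 14 arrays. With the coded arrays alone 46 genes fell in A-SC, of which 6 fell and 2 rose in A-iPSC, and 28 rose, of which 0 rose in A-iPSC. With the uncoded arrays alone, 1 array a group whose spread is taken from the other groups, 120 fell, of which 11 (9.17%) fell and 0 rose in A-iPSC. Likewise 154 rose, of which 12 (7.79%) rose and 1 fell in A-iPSC. With the iPSC contrast refitted on the same reduced set of arrays, 77 genes were called with the same sign and 4 with opposite signs for the uncoded arrays, and 10 and 5 for the coded arrays.

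The remaining lists gave no call: matrix crosslinking and proteolysis (0 of 33), dermal fibroblast subtype markers (0 of 22), smooth muscle contractile genes (0 of 12), CDK inhibitors, p53 targets and senescence markers (0 of 30), TGF-beta, BMP and activin signalling (0 of 30), WNT, hedgehog and FGF signalling (0 of 26), lipid handling (0 of 15), fibroblast markers (0 of 13), endothelium (0 of 4), skeletal muscle (0 of 6), cartilage, bone and tendon (0 of 7), Schwann cell and neuron (0 of 4), pericyte (0 of 4) and sex-linked genes (0 of 5). Melanocyte and adipocyte markers had 0 members. Cdkn2a, which encodes the senescence proteins p16 and ARF, was at 8.33, 8.14 and 9.70 in A-SC, against 5.03, 7.84 and 7.97 in Y-SC, and did not pass (adjusted p = 0.39). The low value was that of the uncoded Y-SC array, where the probe was not detected. Ly6c1, an antigen of some dermal fibroblasts and of endothelium, was at 12.49, 8.84 and 10.72 in A-SC, against 7.54, 7.57 and 4.99 in Y-SC (adjusted p = 0.0978). Of the factors used for reprogramming, Klf4 and Myc differed by -0.02 ± 0.36 and -0.41 ± 0.39, and neither passed. Slc2a3, a glucose transporter, differed by -0.30 ± 0.47. Pou5f1, Sox2, Gpx2 and Zscan10 were not members.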

How the data were processed

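The deposited table holds bead intensity values, not normalized per the file headers, with a detection p-value per probe that the file headers name; its export steps are not given in the sources used here. lumi is named in the submitters' processing notes. The authors' deposited value table of normalized intensity was an alternative only. Background was corrected by normexp with controls inferred from the detection p (offset 16), arrays were quantile normalized and log2 transformed, and limma 3.58.1 (R 4.3.3) fitted 1 mean per group over all 14 arrays (8 residual degrees of freedom) with empirical Bayes. Benjamini-Hochberg adjustment ran over 14742 probes detected on every array of at least 1 of the 6 groups. A separate contrast tested the difference between export formats. Where a probe was not detected on any array of a group, the fold is a bound against the lowest detected intensity of each array. The number of arrays limits the precision.

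Symbols came from the platform annotation, updated through gene IDs for 23962 of 23978 named probes; 1719 probes are unnamed here, 684 of them members. Members and lists were chosen with earlier results of these data known. Called genes other than Tlr4, Hr and Fgf13 were named by rule: the 15 highest and 15 lowest without overlap, up to 6 per list and direction, those called in both contrasts, HOX and sex-linked genes, and 8 genes of the reprogramming and glutathione questions. Uncalled genes are named after their values were seen. The test was run on simulated data in which each probe had the same spread on every array. That check could not show the effect of the larger spread between fibroblast arrays. Alternatives covered background, offset, normalization, filters, prior, array weights, averaging of probes, the fibroblast arrays alone, export format and leaving out arrays.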

Additional observations from a re-analysis of the deposited data

Results flagged for a closer look

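For 14 of the 38 called genes named by rule the A-SC minus Y-SC difference was not the same as the A-iPSC minus Y-iPSC difference, by the test of that difference itself (limma, adjusted p under 0.05, 562 of 14742 probes). The fibroblast difference exceeded the iPSC difference by 4.10 for S100a16, 3.55 for Lmcd1, 3.16 for Ptpn22, 2.90 for Tmem45a, 2.75 for Spink6, 2.49 for Angpt4, 2.22 for Sod3 and 1.92 for Akr1c12. It was the more negative, by -4.44 for Sprr2k, -3.25 for Lyz1, -2.63 for Megf10, -2.42 for Pf4, -2.40 for Lingo2 and -1.80 for Lhx9. For S100a16 the 2 differences had opposite signs and were both called. The 38 were chosen for a called fibroblast difference, which this test uses again, so it is not independent of the choice. Pf4, Lhx9, Angpt4, Spink6 and Lingo2 lay between 4.28 and 4.59 on every A-iPSC and Y-iPSC array. Undetected probes of the fibroblast arrays had such levels, so little iPSC difference could show there.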

How the results depend on the processing

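The 61 calls became 37 without background correction, 36 in the authors' deposited value table, 26 with no filter, 20 over probes detected on all 6 fibroblast arrays, 7 on the 6 fibroblast arrays alone, 98 with the coded arrays alone and 456 with the uncoded pair alone, whose lone arrays are assumed to vary like the other groups. Leaving out 1 array gave 22 (without A-SC-1.4), 55 (without the uncoded Y-SC array) and at most 92 (without Y-SC-16), and leaving out the uncoded A-SC array and Y-SC-17, chosen after seeing the data, gave 103. Calls higher in A-SC made up 45.9%, but 62.2% without background correction, 61.1% in the authors' table, 58.1% with offset 50, 58.7% with cyclic loess and 57.7% with no filter. Median scaling moved the median of all tested probes to -0.12. The 8 genes called alike in iPSC, refitted under each setting, became 5 in the authors' table and with offset 50, 3 with cyclic loess and with no filter, 4 over probes detected on all 6 arrays, 77 with the uncoded pair alone, and 3 to 10 without 1 array. The 240 probes that differed between formats became 32 over probes detected on all 6 arrays and 0 on these arrays alone. The causes were not tested. No paired analysis was possible because the codes of the A-SC and Y-SC arrays share no number.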

Other observations

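On the uncoded A-SC array 107 genes lay over 2 log2 units above, and 13 over 2 below, all 5 other fibroblast arrays, against at most 12 above on any other array and 36 below on Y-SC-17. Among the 13 was Psmb6, a proteasome subunit gene that every cell uses, at 6.17, against 11.71 and 11.74 on A-SC-1.3 and A-SC-1.4 and 11.53 to 12.15 in Y-SC. It was at 7.13 and 6.88 in A-iPSC and 7.59 and 8.35 in A-iPSC with ZSCAN10, against 12.15 and 12.41 in Y-iPSC and 12.68 and 12.59 in embryonic stem cells. Its single probe was detected on all 6 fibroblast arrays. Thumpd1, an RNA acetylation adaptor, was at 4.49, 9.26 and 9.56 in A-SC, against 9.19, 9.20 and 9.95 in Y-SC. In A-iPSC it was at 4.58 and 4.57, against 9.32 and 4.65 in Y-iPSC. Of the 13 genes, 8 and 10 were also over 2 below these 5 fibroblast arrays on the A-iPSC arrays, 6 and 5 on the arrays of A-iPSC with ZSCAN10, 3 and 7 on the Y-iPSC arrays, and 0 on both embryonic stem cell arrays. Of the 107 genes, 19 and 19 were also over 2 above these 5 on the A-iPSC arrays. The counts were 18 and 19 with ZSCAN10, 15 and 13 in Y-iPSC, and 11 and 11 in embryonic stem cells.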
